A study of Mus musculus with 12 samples.

Results

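The genes described here encode the machinery that releases transmitter from synaptic vesicles: SNARE proteins and the factors that take SNARE complexes apart, synapsins and a synuclein, proteins of the vesicle membrane, the small GTPases of the Rab3 family with an effector, priming and calcium-sensing factors, and scaffold proteins of the active zone. They were chosen by name, as 37 gene symbols, with earlier results of these data known. Each was represented by the probe set that carries exactly this symbol and, where there were several, had the highest mean signal over the 12 arrays. Of the 37 genes, 36 were measured this way, out of 19937 gene symbols with a probe set of their own. Vamp2, which encodes the main vesicle SNARE of forebrain synapses, has no value here because its 1 probe set carries several symbols.

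At a synapse, vesicles filled with transmitter dock at the active zone, a protein scaffold at the presynaptic membrane, are primed for fusion, and fuse when calcium enters. Fusion is driven by SNARE proteins of the vesicle and of the plasma membrane that zip together, and the ATPase NSF with its SNAP adaptors separates them again for reuse. In the rodent cortex, synapses form in large numbers over the first weeks after birth, and glutamatergic and GABAergic terminals share most of this machinery while using different members of some of its families.

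RNA of GFP-labelled cells, sorted by FACS from the cortex of C57BL6 mice, was hybridized to Affymetrix Mouse Gene 1.0 ST arrays. Pyramidal cells came from NexCre;RCE mice at postnatal day 0 (Pyr P0) and day 12 (Pyr P12), and the labels name the somatosensory cortex for them. Interneurons came from Nkx2-1Cre;RCE:LoxP mice at day 0 (IN P0) and day 10 (IN P10), and the labels name the cortex. Each of the 4 groups had 3 arrays, labelled as biological replicates A to C. RCE is a reporter that expresses GFP once Cre has acted, so all 4 groups carried a Cre driver and the reporter. Cells are labelled by the past activity of the driver: Nex is active in the pyramidal lineage, and Nkx2-1 in the medial ganglionic eminence, which gives rise to a part of the cortical interneurons and not to all of them. The older groups differed in age by 2 days, and the labels differ in cortical area, so in every comparison between the populations the cell type cannot be told apart from the mouse line and the area, nor at the older stage from the age.

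Values are log2 signals after the authors' RMA normalization. A log2 signal can be compared between arrays for the same gene, but not between genes, because probes differ in brightness. Background was set from 1208 probe sets of olfactory and vomeronasal receptors, as their 95th percentile on each array, and lay between 7.13 and 7.45. All 36 genes were above it on all 3 arrays of each group, Cadps2 in IN P10 by a small margin. Gad1, the main GABA-synthesizing enzyme, was between 12.63 and 13.30 on the interneuron arrays and between 8.40 and 9.76 on the pyramidal arrays. Slc17a7, the vesicular glutamate transporter VGLUT1, was between 10.05 and 13.43 on the pyramidal arrays and between 7.86 and 8.33 on the interneuron arrays. The mean of 8 markers of oligodendrocyte precursors was 9.66 to 10.35 in IN P10 and 9.68 to 9.92 in IN P0, against 7.59 to 7.91 in the pyramidal groups. All 8 were called higher in the older interneurons than in the older pyramidal cells, against 2.65% of all probe sets. The mean of 9 markers of myelinating oligodendrocytes was 8.64 to 8.95 in IN P10 and at most 7.83 in the other groups. Of the 9, 3 rose with age in interneurons, against 4.19% of all probe sets. The mean of 11 pyramidal markers was 9.48 to 9.90 in IN P0 and 8.94 to 9.03 in IN P10, against 11.16 to 11.59 in the pyramidal groups. The mean of 11 interneuron markers was 8.91 to 9.36 in Pyr P0 and 7.78 to 7.90 in Pyr P12, against 12.21 to 12.40 in the interneuron groups. Of the 11, 7 fell with age in pyramidal cells, against 3.48% of all probe sets (median log2 difference over the 11 of -1.44). The mean of 10 astrocyte markers was 7.64 to 7.68 in Pyr P0, 8.12 to 8.26 in Pyr P12, 7.75 to 7.89 in IN P0 and 7.82 to 8.03 in IN P10. Of the 10, 2 rose with age in pyramidal cells (5.68% of all probe sets) and 1 in interneurons (4.19%). The part of other cells in the results on either population was not tested. In sorted bulk RNA, fewer cells of a type and less RNA per cell cannot be told apart.

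The promoters of the genes on which the comparisons turn are shown first, as the 250 bases before the most upstream listed transcription start, read 5′ to 3′ on the strand of the gene, from RefSeq on GRCm38.p6. RefSeq promoters matched 30 of the 36 measured genes. Syn1 and Syp are shown as members that rose in both populations, Cadps2 and Sv2b as those with the largest differences between the older populations, and Rab3b as a member that rose in interneurons. Capitals mark every match, on either strand, to the motifs searched: GGGCGG (the GC box), TATAAA (the TATA box), TGACGTCA (the cAMP response element, CRE) and its core TGACG, which overlaps it, and TTCAGCACC and GGACAG, the left and right parts of the RE1 element bound by the repressor REST. The windows are chrX:20920919-20921168 on the minus strand for Syn1, chrX:7638330-7638579 on the plus strand for Syp, chr6:23839422-23839671 on the minus strand for Cadps2, chr7:75309263-75309512 on the minus strand for Sv2b, which has 4 listed starts, and chr4:108878820-108879069 on the plus strand for Rab3b.
Syn1: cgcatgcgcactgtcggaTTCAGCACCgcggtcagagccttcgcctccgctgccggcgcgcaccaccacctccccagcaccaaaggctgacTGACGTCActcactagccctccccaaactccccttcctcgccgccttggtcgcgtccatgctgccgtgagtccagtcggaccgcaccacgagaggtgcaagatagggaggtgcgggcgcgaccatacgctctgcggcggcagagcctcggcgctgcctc
Syp: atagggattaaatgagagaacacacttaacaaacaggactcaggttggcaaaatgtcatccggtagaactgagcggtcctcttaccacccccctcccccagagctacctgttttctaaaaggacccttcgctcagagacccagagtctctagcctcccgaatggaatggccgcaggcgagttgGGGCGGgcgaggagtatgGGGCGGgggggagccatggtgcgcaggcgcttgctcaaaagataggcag
Cadps2: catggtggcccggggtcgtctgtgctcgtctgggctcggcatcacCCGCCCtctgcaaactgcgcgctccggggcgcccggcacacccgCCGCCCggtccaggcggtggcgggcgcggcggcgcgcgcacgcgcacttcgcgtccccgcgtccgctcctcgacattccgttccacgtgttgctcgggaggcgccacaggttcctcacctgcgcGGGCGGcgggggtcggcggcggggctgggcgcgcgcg
Sv2b: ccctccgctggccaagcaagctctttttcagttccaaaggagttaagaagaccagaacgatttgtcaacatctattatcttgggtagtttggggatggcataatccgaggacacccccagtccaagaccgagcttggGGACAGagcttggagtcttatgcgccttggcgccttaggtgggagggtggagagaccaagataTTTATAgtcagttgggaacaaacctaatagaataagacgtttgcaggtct
Rab3b: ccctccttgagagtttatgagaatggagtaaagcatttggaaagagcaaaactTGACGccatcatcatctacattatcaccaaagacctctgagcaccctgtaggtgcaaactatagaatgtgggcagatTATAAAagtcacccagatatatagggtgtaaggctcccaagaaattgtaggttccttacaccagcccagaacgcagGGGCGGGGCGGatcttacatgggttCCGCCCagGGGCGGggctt

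The GC box was present in 21 of the 30 promoters (70%), against 33% of 27025 promoters of the same length taken 1 per gene. The members' promoters had a median GC content of 61.2%, against 52% over all promoters, and the motif itself is made of G and C. TATAAA occurred in 2 of 30 (6.67%), Rab3b and Sv2b, against 13% of all promoters. The whole CRE occurred in 1 of 30 (3.33%), Syn1, against 1.6%, and its core in 7 of 30 (23.3%), against 17.8%. The left part of RE1 occurred in Syn1 alone among the members (3.33%, against 0.292% of all promoters), and the right part in 6 (20%, against 18.7%). Cadps2 had the most GC-rich window of the members, at 78%, with 3 GC boxes, and Sv2b held no GC box in a window of 48.8% GC. A match is a description of these letters and says nothing about binding.

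**Figure D1:**
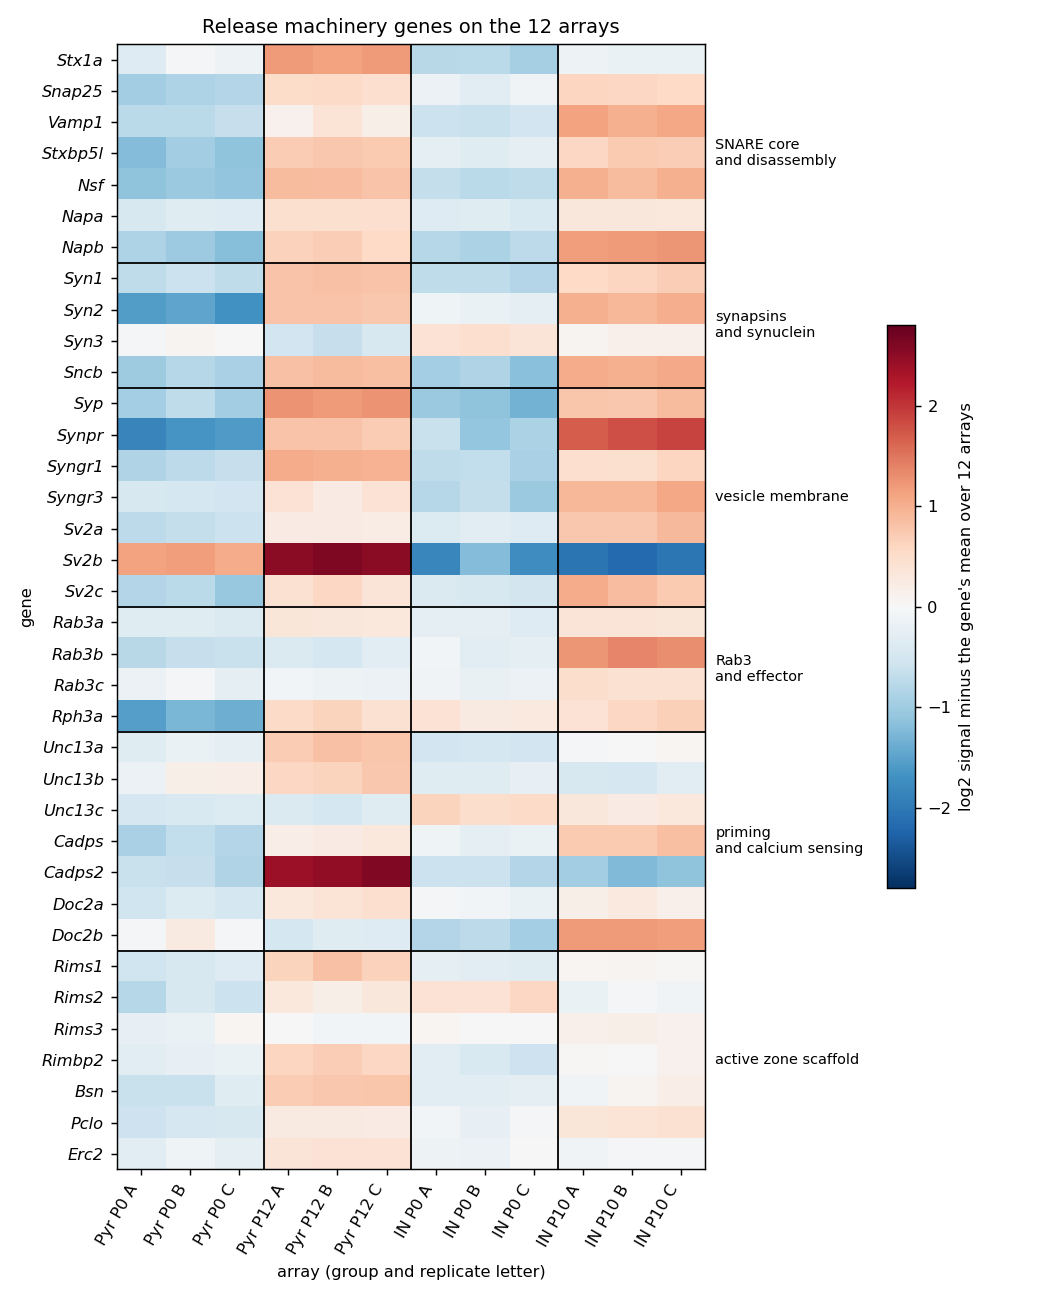
Log2 signal of the 36 measured genes (rows, grouped by role) on the 12 arrays (columns, 3 per group), each shown as the difference from the gene's own mean over the 12 arrays, in colour on a scale from -2.8 to 2.8. Most rows change colour between P0 and the older age in both populations, while Sv2b is below its mean on all 6 interneuron arrays and Cadps2 is above its mean on the 3 Pyr P12 arrays alone.

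To describe how the release machinery changed during the wiring of the cortex, the older and the newborn cells of each population were compared. A gene was called where limma's moderated test, fitted over all 4 groups and adjusted by Benjamini-Hochberg over 22961 probe sets, gave an adjusted p under 0.05 together with a fold change over 2. In interneurons, 14 of 36 genes were called higher at P10 than at P0, against 4.19% of all probe sets tested, and 0 were called lower, against 2.85%. In pyramidal cells, 19 of 36 were called higher at P12 than at P0, against 5.68%, and 0 lower, against 3.48%. The median log2 difference over the 36 genes was 0.67 in interneurons and 1.04 in pyramidal cells, against 0.00 and 0.06 over all probe sets tested. Without the fold requirement, 28 genes were higher and 5 lower in interneurons (22.3% and 23.1% of all probe sets), and 31 were higher and 2 lower in pyramidal cells (33% and 21.7%). Both comparisons were called higher for 9 of 36 genes, against 2.34% of all probe sets, namely Napb, Nsf, Sncb, Sv2c, Syn1, Syn2, Syngr1, Synpr and Syp. Because the genes were chosen with earlier results of these data known, the shares beside these counts are a description and no test of the set.

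**Figure D2:**
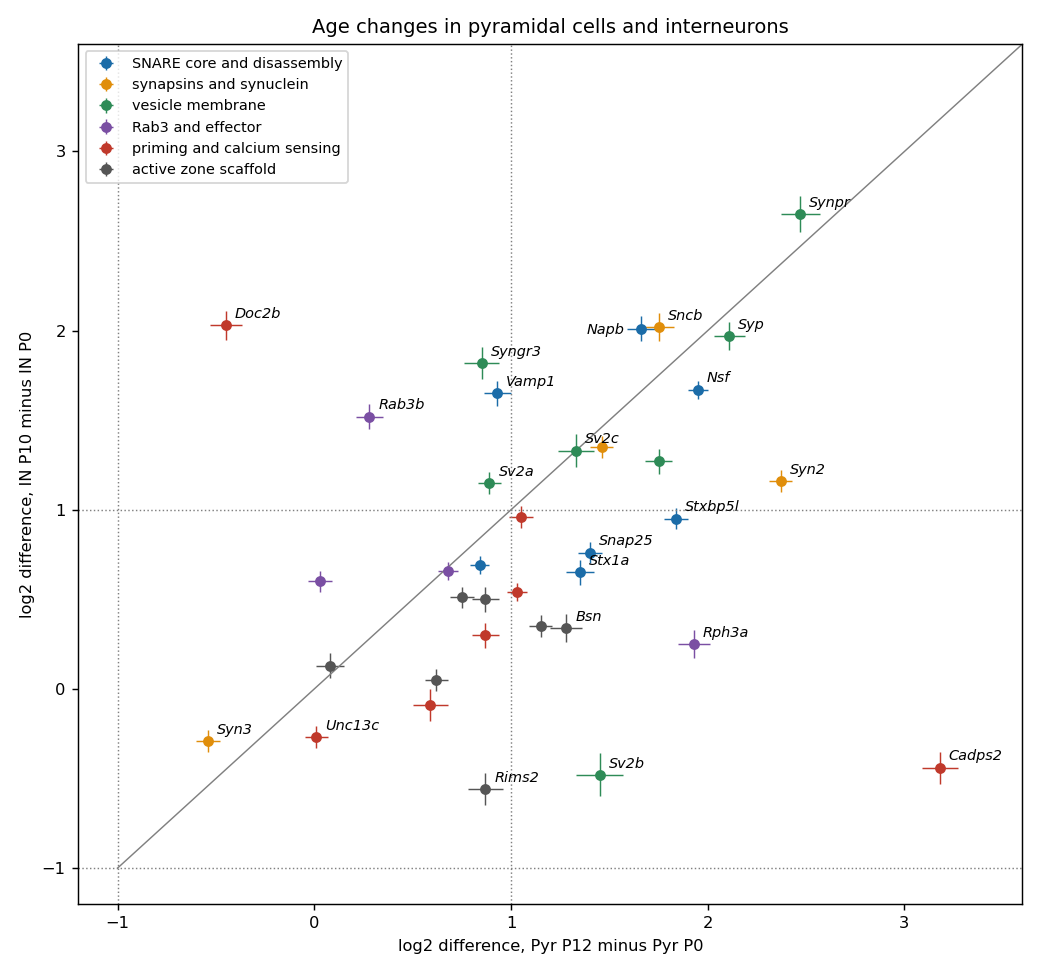
Log2 difference with age in pyramidal cells (Pyr P12 minus Pyr P0, x axis) and in interneurons (IN P10 minus IN P0, y axis) for the 36 genes, coloured by role, with bars of 1 SE, dotted lines at a fold of 2 and the diagonal of equal change. Nsf, Syp, Sncb and Napb lie near the line in the upper right, Cadps2, Sv2b and Rph3a lie far below it, and Doc2b and Rab3b lie far above it.

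The SNARE proteins, the factors that take them apart and the SNARE regulator Stxbp5l made up 7 genes. Of these, 5 rose with age in pyramidal cells and 3 in interneurons. For this role and those below, the share called higher over all probe sets was 5.68% in pyramidal cells and 4.19% in interneurons. Nsf, the ATPase that disassembles SNARE complexes, had log2 signals of 10.92, 11.00 and 10.93 in Pyr P0, 12.94, 12.91 and 12.84 in Pyr P12, 11.38, 11.28 and 11.34 in IN P0, and 13.04, 12.92 and 13.03 in IN P10. The older arrays were above all newborn arrays of either population. Nsf rose 3.86-fold in pyramidal cells (log2 difference 1.95 ± 0.05, SE, adjusted p = 5.48e-12) and 3.17-fold in interneurons (1.67 ± 0.05, adjusted p = 5.03e-11). Napb encodes beta-SNAP, the brain form of the adaptor that brings NSF to SNARE complexes. Its log2 signals were 10.82, 10.67 and 10.50 in Pyr P0, 12.33, 12.38 and 12.26 in Pyr P12, 10.90, 10.80 and 10.97 in IN P0, and 12.87, 12.89 and 12.92 in IN P10. Napb rose 4.02-fold in interneurons (adjusted p = 1.50e-10) and 3.16-fold in pyramidal cells (adjusted p = 4.08e-10), and again no newborn array reached an older one. Napa, which encodes the broadly expressed alpha-SNAP, stayed under the fold threshold, with log2 differences of 0.84 in pyramidal cells and 0.69 in interneurons.

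The SNAREs of the plasma membrane and of the vesicle differed in their values. Snap25, a SNARE of the presynaptic membrane, had 12.51, 12.62 and 12.67 in Pyr P0, 14.00, 14.02 and 13.97 in Pyr P12, 13.32, 13.20 and 13.39 in IN P0, and 14.09, 14.07 and 14.04 in IN P10. It rose 2.64-fold in pyramidal cells (adjusted p = 2.32e-10), and the difference of 0.76 ± 0.06 in interneurons was under the fold threshold (1.70-fold). The newborn interneurons started from a higher level, and the older groups differed by 0.07 (95% confidence interval -0.06 to 0.20). The highest log2 value of any probe set on the 12 arrays was 14.73, and an effect of the upper end of the scale on Snap25 was not tested. Stx1a, the syntaxin that pairs with Snap25, had 10.52, 10.82 and 10.74 in Pyr P0, 12.07, 12.01 and 12.07 in Pyr P12, 10.09, 10.13 and 9.95 in IN P0, and 10.73, 10.70 and 10.70 in IN P10. Stx1a in the older interneurons was thus at the level of the newborn pyramidal cells. It rose 2.56-fold in pyramidal cells (adjusted p = 2.42e-09), and the difference in interneurons was 0.65 ± 0.07. Vamp1, a vesicle SNARE related to Vamp2, had 8.44, 8.44 and 8.54 in Pyr P0, 9.30, 9.56 and 9.36 in Pyr P12, 8.59, 8.57 and 8.65 in IN P0, and 10.31, 10.19 and 10.27 in IN P10. Vamp1 rose 3.13-fold in interneurons (adjusted p = 3.62e-10), and its difference of 0.93 ± 0.07 in pyramidal cells was 1.90-fold. Stxbp5l, a tomosyn that can hold SNAREs back from fusion, rose 3.58-fold in pyramidal cells (adjusted p = 4.29e-11), and its difference of 0.95 ± 0.06 in interneurons was 1.93-fold.

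The synapsins, which coat vesicles and tether them in the reserve pool, and beta-synuclein were called higher for 3 of 4 genes in each population. Syn1 had 11.62, 11.72 and 11.62 in Pyr P0, 13.11, 13.15 and 13.11 in Pyr P12, 11.62, 11.62 and 11.49 in IN P0, and 12.87, 12.92 and 13.00 in IN P10. The newborn groups overlapped, and the rise was 2.76-fold in pyramidal cells (adjusted p = 1.09e-10) and 2.56-fold in interneurons (adjusted p = 4.61e-10). Sncb, which encodes beta-synuclein, a presynaptic relative of alpha-synuclein, had 10.39, 10.59 and 10.47 in Pyr P0, 12.21, 12.27 and 12.22 in Pyr P12, 10.43, 10.54 and 10.21 in IN P0, and 12.42, 12.37 and 12.44 in IN P10. It rose 3.36-fold in pyramidal cells (adjusted p = 3.65e-10) and 4.06-fold in interneurons (adjusted p = 2.07e-10). Syn2 had 10.20, 10.30 and 10.08 in Pyr P0, 12.58, 12.58 and 12.52 in Pyr P12, 11.65, 11.59 and 11.53 in IN P0, and 12.76, 12.71 and 12.78 in IN P10. The newborn interneurons already lay between the newborn and the older pyramidal cells. Syn2 rose 5.16-fold in pyramidal cells (adjusted p = 2.93e-12) and 2.23-fold in interneurons (adjusted p = 3.27e-09). Syn3, the synapsin associated with early stages of neuronal growth, went the other way, with 11.38, 11.49 and 11.40 in Pyr P0, 10.89, 10.78 and 10.97 in Pyr P12, 11.83, 11.88 and 11.79 in IN P0, and 11.50, 11.57 and 11.56 in IN P10. Its log2 differences with age were -0.54 ± 0.06 in pyramidal cells (adjusted p = 2.63e-06) and -0.29 ± 0.06 in interneurons (adjusted p = 0.000883), under the fold threshold in both.

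Of the 7 genes for proteins of the vesicle membrane, 6 rose with age in interneurons and 5 in pyramidal cells. Syp, which encodes synaptophysin, an abundant protein of the vesicle membrane, had 11.23, 11.47 and 11.22 in Pyr P0, 13.45, 13.37 and 13.44 in Pyr P12, 11.15, 11.07 and 10.86 in IN P0, and 12.96, 12.94 and 13.08 in IN P10. It rose 4.33-fold in pyramidal cells (adjusted p = 1.26e-10) and 3.91-fold in interneurons (adjusted p = 5.00e-10). Synpr encodes synaptoporin, a relative of synaptophysin. It had 7.72, 7.92 and 7.99 in Pyr P0, 10.37, 10.38 and 10.28 in Pyr P12, 8.96, 8.49 and 8.69 in IN P0, and 11.26, 11.38 and 11.46 in IN P10. Synpr had the largest rise of the 36 genes in interneurons, 6.29-fold (adjusted p = 2.66e-10), and rose 5.53-fold in pyramidal cells (adjusted p = 2.47e-10). The synaptogyrins, relatives of synaptophysin with the same membrane topology, were Syngr1, which rose 3.35-fold in pyramidal cells and 2.42-fold in interneurons, and Syngr3, which rose 3.53-fold in interneurons (adjusted p = 1.94e-09) and had 1.80-fold in pyramidal cells.

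The SV2 proteins, glycoproteins of the vesicle that act on its readiness to fuse, did not share a pattern. Sv2a rose 2.22-fold in interneurons (log2 difference 1.15 ± 0.06, adjusted p = 1.93e-09) and had 0.89 ± 0.06 in pyramidal cells, 1.86-fold. Sv2c rose in both, 2.51-fold in interneurons and 2.52-fold in pyramidal cells, and the difference between these changes was -0.01 (95% confidence interval -0.29 to 0.27). Sv2b had 11.23, 11.26 and 11.13 in Pyr P0, 12.62, 12.71 and 12.62 in Pyr P12, 8.27, 8.89 and 8.35 in IN P0, and 8.06, 7.92 and 8.08 in IN P10. It rose 2.72-fold in pyramidal cells (adjusted p = 2.78e-07), and in interneurons, where it was low at both ages, its difference was -0.48 ± 0.12 (adjusted p = 0.00490).

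Of the Rab3 genes and their effector, 1 of 4 rose in each population, and it was not the same gene. Rab3b, a GTPase that cycles on and off vesicles, had 10.44, 10.56 and 10.60 in Pyr P0, 10.80, 10.73 and 10.90 in Pyr P12, 11.13, 10.92 and 10.93 in IN P0, and 12.46, 12.59 and 12.51 in IN P10. All interneuron arrays lay above all pyramidal arrays, and Rab3b rose 2.88-fold in interneurons (adjusted p = 1.29e-09), with 1.21-fold in pyramidal cells. Rph3a, which encodes rabphilin, an effector that binds Rab3 on the vesicle, had 9.73, 9.98 and 9.90 in Pyr P0, 11.80, 11.90 and 11.70 in Pyr P12, 11.67, 11.51 and 11.55 in IN P0, and 11.68, 11.85 and 11.93 in IN P10. The Pyr P0 arrays alone were low, and Rph3a rose 3.81-fold in pyramidal cells (adjusted p = 2.82e-10) against 1.19-fold in interneurons (adjusted p = 0.0261). Rab3a, the main Rab3 of the brain, had log2 differences of 0.68 ± 0.05 and 0.66 ± 0.05 in pyramidal cells and interneurons, and Rab3c had 0.03 ± 0.06 and 0.60 ± 0.06.

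The priming and calcium-sensing factors varied widely. Cadps and Cadps2 encode CAPS proteins, which prime vesicles for release. Cadps2 had 8.09, 8.07 and 7.86 in Pyr P0, 11.10, 11.18 and 11.30 in Pyr P12, 8.10, 8.10 and 7.89 in IN P0, and 7.74, 7.46 and 7.59 in IN P10. The newborn groups overlapped, the Pyr P12 arrays were far above all others, and the IN P10 arrays were the lowest. Cadps2 rose 9.09-fold in pyramidal cells (log2 difference 3.18 ± 0.09, adjusted p = 6.34e-12), the largest rise among the 36 genes in either population, and its difference in interneurons was -0.44 ± 0.09 (adjusted p = 0.00107). Cadps had 1.05 ± 0.06 in pyramidal cells, called higher at 2.07-fold, and 0.96 ± 0.06 in interneurons, 1.95-fold and not called, and the difference between these changes was -0.08 (95% confidence interval -0.27 to 0.11). Doc2b, a calcium sensor of spontaneous and asynchronous release, had 9.86, 10.18 and 9.88 in Pyr P0, 9.43, 9.58 and 9.56 in Pyr P12, 9.10, 9.18 and 8.96 in IN P0, and 11.12, 11.12 and 11.09 in IN P10. It was lowest in newborn and highest in older interneurons, a rise of 4.09-fold (log2 difference 2.03 ± 0.08, adjusted p = 3.75e-10), with -0.45 ± 0.08 in pyramidal cells. Its relative Doc2a had 0.87 ± 0.07 in pyramidal cells and 0.30 ± 0.07 in interneurons.

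The Munc13 proteins open syntaxin and so prime vesicles for fusion. Unc13a, which encodes Munc13-1, had 11.78, 11.93 and 11.87 in Pyr P0, 12.84, 12.94 and 12.89 in Pyr P12, 11.58, 11.62 and 11.59 in IN P0, and 12.08, 12.13 and 12.18 in IN P10. It was called higher in pyramidal cells at 2.04-fold (log2 difference 1.03 ± 0.05, adjusted p = 2.30e-09), which became 0.99 and no longer a call without replicate A of Pyr P0, and over its 3 probe sets the difference ran from 0.63 to 1.27. Unc13b, which encodes Munc13-2, had 0.59 ± 0.09 in pyramidal cells and -0.09 ± 0.09 in interneurons. Unc13c, which encodes Munc13-3, had 0.01 ± 0.06 in pyramidal cells and -0.27 ± 0.06 in interneurons. None of its 7 probe sets was called with age in either population. On the interneuron arrays, 6 of the 7 were above background on all 6 arrays and 1 on none. On the pyramidal arrays, 4 were above it on all 6 arrays and 2 on none, so fewer could show a change there.

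Of the 7 active zone scaffolds, 2 rose in pyramidal cells and 0 in interneurons, with median log2 differences of 0.87 and 0.34. Bsn, which encodes bassoon, a giant scaffold protein of the active zone, had 9.98, 9.99 and 10.28 in Pyr P0, 11.33, 11.37 and 11.39 in Pyr P12, 10.32, 10.32 and 10.34 in IN P0, and 10.51, 10.68 and 10.79 in IN P10. The Pyr P12 arrays stood above the other 3 groups, with a rise of 2.43-fold in pyramidal cells (adjusted p = 1.61e-08) and 1.26-fold in interneurons. Rims1, a scaffold that links vesicles, calcium channels and Munc13, rose 2.21-fold in pyramidal cells (adjusted p = 3.27e-09) and had 1.27-fold in interneurons. Rims2, its paralog, had 10.01, 10.37 and 10.21 in Pyr P0, 11.11, 10.98 and 11.12 in Pyr P12, 11.21, 11.21 and 11.39 in IN P0, and 10.62, 10.77 and 10.72 in IN P10. Rims2 thus lay higher in older than in newborn pyramidal cells, by 0.87 ± 0.09, and lower in older than in newborn interneurons, by -0.56 ± 0.09, both under the fold threshold. For Pclo, which encodes piccolo, the differences were 0.75 ± 0.06 in pyramidal cells and 0.51 ± 0.06 in interneurons. For Rimbp2, which ties RIM to calcium channels, they were 0.87 ± 0.07 and 0.50 ± 0.07, and for Erc2, an ELKS family scaffold, 0.62 ± 0.06 and 0.05 ± 0.06. Rims3 had 0.08 ± 0.07 and 0.13 ± 0.07, and passed the adjusted p in neither.

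**Figure D3:**
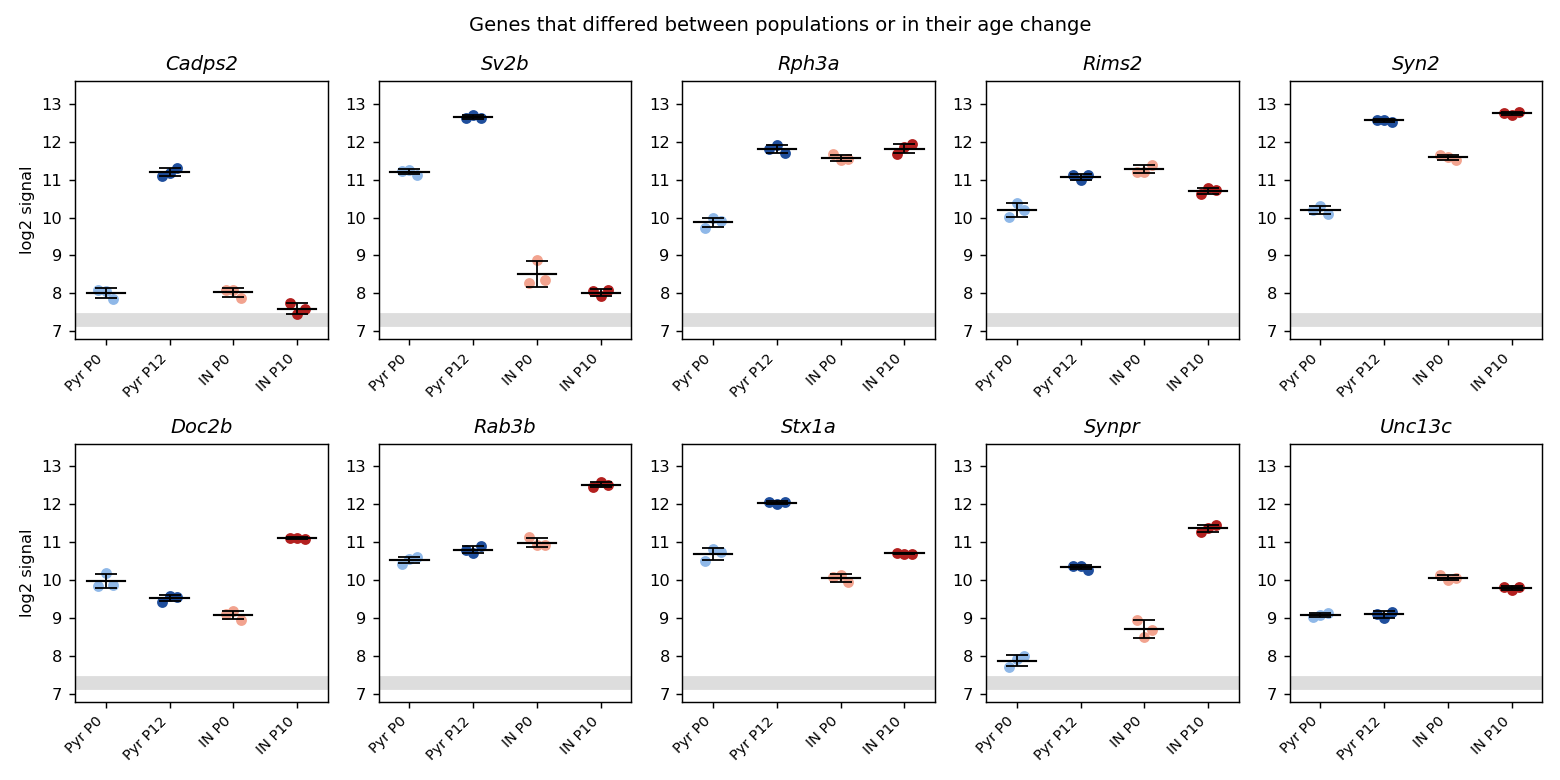
Log2 signal of selected genes in Pyr P0, Pyr P12, IN P0 and IN P10, with 1 point per array, the black bar at the mean of 3 arrays, error bars of 1 SD, and the range of the background level over the 12 arrays in grey. Cadps2 and Sv2b reach their highest values in Pyr P12 and lie close to background in IN P10, and Doc2b and Rab3b reach their highest values in IN P10.

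Whether the change with age differed between the populations was tested directly, by subtracting the age change of pyramidal cells from that of interneurons. Of the 36 genes, 5 were called lower, meaning a smaller or opposite change in interneurons, against 2.63% of all probe sets, and 2 were called higher, against 2.24%. The lower calls were Cadps2 (-3.62 ± 0.13, adjusted p = 4.12e-10), Sv2b (-1.93 ± 0.17, adjusted p = 2.07e-06), Rph3a (-1.69 ± 0.12, adjusted p = 1.84e-07), Rims2 (-1.44 ± 0.12, adjusted p = 1.12e-06) and Syn2 (-1.21 ± 0.09, adjusted p = 2.10e-07). The higher calls were Doc2b (2.48 ± 0.12, adjusted p = 6.93e-09) and Rab3b (1.25 ± 0.10, adjusted p = 7.65e-07). These 7 include a vesicle glycoprotein, a synapsin, a scaffold, 2 priming or calcium-sensing factors, a Rab3 and its effector. The median over the 36 genes was -0.26, against -0.07 over all probe sets, and without the fold requirement 19 were lower (20.3% of all probe sets) and 8 higher (11.8%). Of the 7 genes for SNAREs, their disassembly factors and Stxbp5l, 4 were lower and 2 higher at the adjusted p alone. Their median was -0.28, with 0 calls. In the active zone group, 6 of 7 were lower at the adjusted p alone, with a group median of -0.57, and Rims2 alone was called. Syngr3, at 0.97 ± 0.13, was just short of a call and was called, at 1.00, without replicate C of Pyr P12 and without replicate A or B of IN P10, and at 1.06 without replicate B of IN P0. Bsn, at -0.95 ± 0.12, was called without replicate C of Pyr P0 (-1.04) or replicate C of IN P10 (-1.01).

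The populations were next compared at each stage. In newborn cells, 3 of 36 genes were called higher in interneurons, against 1.9% of all probe sets, and 1 was called lower, against 1.74%. Rph3a was 3.26-fold higher in IN P0 (log2 difference 1.71 ± 0.08, adjusted p = 3.13e-09), Syn2 was 2.64-fold higher (1.40 ± 0.06, adjusted p = 1.08e-09), and Rims2 was 2.10-fold higher (1.07 ± 0.09, adjusted p = 4.48e-07). The call for Rims2 rests on its fold: without replicate A of Pyr P0 the difference was 0.98. Sv2b was 6.52-fold lower in IN P0 (-2.70 ± 0.12, adjusted p = 1.80e-09). Its array B in IN P0, at 8.89, stood above arrays A and C, at 8.27 and 8.35, and Slc17a7 was likewise highest on that array, at 8.33 against 7.89 and 7.86. The part of pyramidal RNA in this level was not tested.

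At the older stage, 3 of 36 genes were called higher in interneurons, against 2.65% of all probe sets, and 4 were called lower, against 2.91%. The largest difference was that of Sv2b, 24.8-fold lower in IN P10 (-4.63 ± 0.12, adjusted p = 5.77e-12), followed by Cadps2, 12.1-fold lower (-3.59 ± 0.09, adjusted p = 3.54e-12). Stx1a was 2.53-fold lower (-1.34 ± 0.07, adjusted p = 4.54e-09), and Unc13b was 2.09-fold lower (-1.06 ± 0.09, adjusted p = 3.42e-07), from 10.89, 10.94 and 11.06 in Pyr P12 to 9.87, 9.85 and 9.99 in IN P10. Rab3b was 3.27-fold higher in IN P10 (1.71 ± 0.07, adjusted p = 3.91e-10), and Doc2b 3.01-fold higher (1.59 ± 0.08, adjusted p = 3.46e-09). Synpr was 2.03-fold higher (1.02 ± 0.10, adjusted p = 2.92e-06), and its difference was 0.99 without replicate C of Pyr P12 and 0.97 without replicate C of IN P10, no longer a call.

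Some of the other members were close in the older populations. The interval of the difference was -0.07 to 0.13 for Rab3a, -0.01 to 0.22 for Nsf, -0.16 to 0.20 for Rph3a and -0.21 to 0.07 for Stxbp5l, each as a 95% confidence interval on the log2 scale. Rph3a, which was 3.26-fold higher in newborn interneurons, thus had overlapping groups at the older stage. Groups did not overlap at that stage for 32 of 36 genes, against 59% of all probe sets. Members that differed without a call included Vamp1 (0.85 ± 0.07) and Syn3 (0.66 ± 0.06) upward in IN P10, and Unc13a (-0.76 ± 0.05) and Bsn (-0.70 ± 0.08) downward. Of the 7 active zone scaffolds, 5 were lower and 1 higher in IN P10 at the adjusted p alone, with a median of -0.45. Median log2 differences over the 36 genes were 0.15 in newborn and 0.05 in older cells, against -0.00 and -0.07 over all probe sets. Without the fold requirement, 16 genes were higher and 8 lower in IN P0 (11.1% and 11.3% of all probe sets), and 14 were higher and 15 lower in IN P10 (16.1% and 30.4%).

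**Figure D4:**
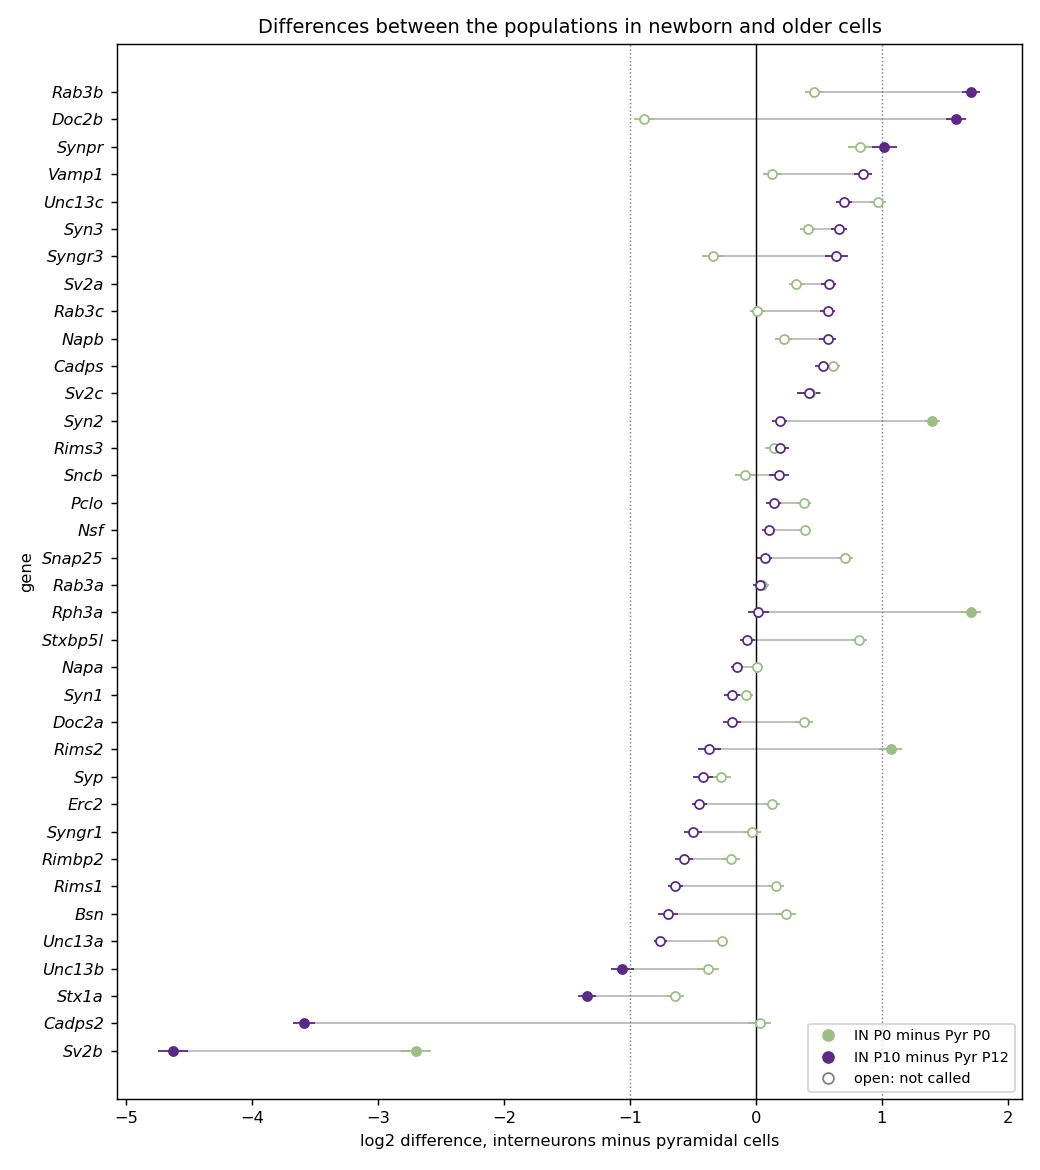
Log2 difference between interneurons and pyramidal cells for each of the 36 genes, newborn (IN P0 minus Pyr P0) and older (IN P10 minus Pyr P12), with bars of 1 SE, filled points for calls, open points for genes not called, and dotted lines at a fold of 2. Sv2b lies beyond the line on the lower side at both stages, Cadps2 lies there at the older stage alone, and Rab3b and Doc2b pass the upper line at the older stage.

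Unc13c needs a separate statement because its 7 probe sets disagree in size. The brightest, used above, had 9.04, 9.09 and 9.13 in Pyr P0, 9.11, 9.01 and 9.17 in Pyr P12, 10.13, 10.00 and 10.05 in IN P0, and 9.83, 9.74 and 9.81 in IN P10. Its differences of 0.97 ± 0.06 in newborn and 0.70 ± 0.06 in older cells were not called, although the interneuron arrays lay above the pyramidal arrays at both stages. In newborn cells, 4 of the 7 probe sets were above background on all 6 arrays, their differences ran from 0.91 to 2.03, and 2 of them were called higher in interneurons. In older cells, 5 were above background on all 6 arrays, with differences from 0.70 to 2.09, and 4 were called higher. Of the rest, 1 probe set was above background on all interneuron arrays and on no pyramidal array. Its differences of 2.38 in newborn and 2.65 in older cells were called, and are lower bounds. Another was above background on 2 of 3 Pyr P0 arrays and was called in newborn cells, at 1.78. The last, 1 probe set, was above it on no array at all. Over all 7 probe sets, whether above background or not, 5 were called higher in newborn interneurons and 6 in older ones. Leaving out replicate B of IN P0 brought the newborn difference of the brightest probe set to 1.00 and a call.

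Relatives of these genes outside the 36 were counted from 4 lists. With age, 4.19% of all probe sets were called higher and 2.85% lower in interneurons. In pyramidal cells, these shares were 5.68% and 3.48%. For lists of this size, 0 falling is close to the share over all probe sets. Of 20 other SNAREs and SNARE regulators, 2 rose with age in interneurons and 3 in pyramidal cells, with 0 falling. Cplx1, a complexin that clamps and then promotes fusion, rose in interneurons by a log2 difference of 2.13 ± 0.06, had 0.71 ± 0.06 in pyramidal cells, and exceeded its Pyr P12 level in IN P10 by 1.44 ± 0.06 (adjusted p = 5.02e-10). Stxbp6, which encodes amisyn, a syntaxin-binding protein, rose by 3.37 ± 0.07 in pyramidal cells and by 1.42 ± 0.07 in interneurons, and in newborn cells was 1.84 ± 0.07 higher in interneurons. Vamp4, a SNARE of the trans-Golgi network and endosomes, rose by 1.36 ± 0.09 in pyramidal cells and had 0.20 ± 0.09 in interneurons. Of 26 other active zone and priming genes, 5 rose in interneurons and 4 in pyramidal cells, with 0 falling. Lin7b, a partner of CASK at the synapse, rose in both (1.76 ± 0.08 in interneurons and 2.22 ± 0.08 in pyramidal cells), and Lin7a rose by 2.30 ± 0.07 in pyramidal cells and 1.33 ± 0.07 in interneurons and differed by -1.19 ± 0.07 between older interneurons and pyramidal cells. Rab27b, a GTPase of secretory vesicles, rose by 2.36 ± 0.12 in interneurons and by 1.40 ± 0.12 in pyramidal cells. Its age changes differed by 0.96 ± 0.16, not a call, and it was 1.18 ± 0.12 higher in older interneurons than in older pyramidal cells. Ppfia4, a liprin-alpha, had an age change larger by 1.47 ± 0.12 in interneurons (adjusted p = 7.58e-07).

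Of 22 other vesicle proteins, 4 rose with age in each population and 0 fell. Syt2, a fast calcium sensor, rose by 2.63 ± 0.09 in interneurons, and the difference from its change in pyramidal cells was 2.56 ± 0.13 (adjusted p = 1.40e-08). Slc32a1, the vesicular GABA transporter, rose by 1.28 ± 0.09 in interneurons and was higher there than in pyramidal cells by 2.74 ± 0.09 in newborn and 4.21 ± 0.09 in older cells. Slc17a7 rose by 3.16 ± 0.11 in pyramidal cells, differed by -5.22 ± 0.11 between the older populations, and had an age change that differed by -3.04 ± 0.15. Slc17a6, the transporter VGLUT2, differed by -2.84 ± 0.15 between the newborn populations, and Syt12, a synaptotagmin that does not bind calcium, rose by 1.78 ± 0.10 in pyramidal cells and 1.05 ± 0.10 in interneurons. Of 27 genes of vesicle endocytosis, which retrieves the membrane after release, 4 rose in interneurons and 5 in pyramidal cells, with 0 falling. Dnm1, the dynamin that cuts vesicles from the membrane, rose by 1.14 ± 0.06 in interneurons and by 1.53 ± 0.06 in pyramidal cells. Dnajc6, an uncoating factor, rose by 1.47 ± 0.07 in interneurons and had 0.98 ± 0.07 in pyramidal cells, just under the fold threshold. Pacsin1, a membrane-bending partner of dynamin, rose by 2.32 ± 0.07 in pyramidal cells and by 1.08 ± 0.07 in interneurons, and these changes differed by -1.24 ± 0.09. Synj2, a synaptojanin, rose by 1.96 ± 0.10 in pyramidal cells, had 0.76 ± 0.10 in interneurons, was lower in older interneurons than in older pyramidal cells (-1.13 ± 0.10), and its age change differed by -1.21 ± 0.15.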

How the data were processed

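The authors hybridized amplified RNA of sorted cells to the arrays and processed the scans with RMA (background correction, quantile normalization and summary of probes). The log2 values used here are as the authors deposited them, for 28192 probe sets and 12 arrays. Software versions and an annotation release are not given in the sources used here. RMA's quantile step equalizes the arrays, so a shift shared by most genes would not show. The number of arrays, not a read depth, limits the precision, with 8 residual degrees of freedom, and how many animals gave each replicate is not given in the sources used here.

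Probe sets were named through GEO's platform annotation: 21640 had 1 symbol, 1321 had several (tested, never named), and 5231 without a symbol did not enter the fit. The 4 groups were fitted together without a block in limma 3.58.1 (R 4.3.3), with Benjamini-Hochberg adjustment over 22961 probe sets. Genes were called at a fold over 2 with an adjusted p under 0.05. SAM, which the study's methods name, was an alternative, and both were tested on simulated data. An exact permutation test of 3 arrays against 3 cannot go below p = 0.1 and was not used. The genes, the lists of relatives and the markers were chosen with earlier results of these data known. All 37 genes are named, and of each list of relatives the 2 called genes with the largest differences in each comparison. The replicate letters were not used to pair the arrays. Over 18 same-letter pairs of arrays, the deviations from the group means correlated between -0.18 and 0.19, with 6 pairs over 0.1. Pairs with different letters ran from -0.257 to 0.298. These values do not settle whether arrays of the same letter were handled together.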

Additional observations from a re-analysis of the deposited data

Results flagged for a closer look

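For 7 genes the change with age differed between interneurons and pyramidal cells by limma's test of that difference, with an adjusted p under 0.05 and a fold over 2. Cadps2 had the largest difference, -3.62 on the log2 scale (95% confidence interval -3.89 to -3.35), with a rise in pyramidal cells and lower values in all 3 IN P10 arrays than in IN P0. Sv2b differed by -1.93 (interval -2.31 to -1.55), also with the signs of the changes opposed. Its change in interneurons was small, at -0.48, from a low signal. Array B of IN P0, at 8.89, stood above arrays A and C, at 8.27 and 8.35, and adds to this change. Rph3a differed by -1.69 (interval -1.94 to -1.43) and Syn2 by -1.21 (interval -1.40 to -1.03), both with the lowest arrays in Pyr P0. Rims2 differed by -1.44 (interval -1.70 to -1.18), although neither of its changes passed the fold threshold alone. Rab3b differed by 1.25 (interval 1.03 to 1.47), and Doc2b by 2.48 (interval 2.23 to 2.74). The older ages differ between the populations, and their part in these differences was not tested.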

How the results depend on the processing

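Counts of called genes stayed within 1.5 times of those reported under SAM and under fits of the groups compared alone. Both settings compare groups in pairs and do not cover the difference of the age changes. The counts also stayed within 1.5 times under limma with trend and robust settings, a filter on dim probe sets and inclusion of all probe sets. The same held for median centring, a second quantile normalization, the mean over a gene's probe sets and an adjusted p under 0.01. With the letters as a replicate block the counts were the same, with 14 genes higher with age in interneurons and 19 in pyramidal cells. They moved with the fold threshold. At a fold over 1.5, 21 genes were called higher with age in interneurons (9.54% of all probe sets) and 30 in pyramidal cells (12.1%). At that fold, 7 were higher (5.59%) and 7 lower (7.47%) in IN P10 against Pyr P12, 8 higher (3.52%) and 3 lower (3.78%) in IN P0 against Pyr P0, and the age changes differed upward for 4 (5.4%) and downward for 11 (7.34%). With no fold threshold, the higher and lower counts were 28 and 5 with age in interneurons, 31 and 2 with age in pyramidal cells, 14 and 15 in older cells, 16 and 8 in newborn cells, and 8 and 19 for the difference of the age changes. Leaving out 1 array at a time gave 14 higher with age in interneurons in every case, 18 to 19 in pyramidal cells, 2 to 3 higher and 4 lower in older cells, 2 to 4 higher and 1 lower in newborn cells, and 2 to 3 higher and 5 to 6 lower for the difference of the age changes. Of the 146 results for single genes with a limma adjusted p under 0.05, 1 changed sign in any of these settings. For Unc13c the difference of the age changes, -0.28, was 0.08 (limma adjusted p = 0.587) as the mean over its 7 probe sets, which include those not above background. By that mean its differences of 1.64 in newborn and 1.72 in older cells were called. Changes of sign were not counted among results that did not pass the adjusted p. The call for Unc13a in pyramidal cells, at 1.03, was lost at 1.00 after median centring, 0.99 after a second quantile normalization and 0.98 as the mean over its probe sets, and Syngr3 was called at 1.01 after median centring. In IN P10, Cadps2 and Sv2b lay near the background level, which limits their folds. The mean of Sv2b there was 8.02. Cadps2 was about as low in newborn cells, at 8.01 in Pyr P0 and 8.03 in IN P0, and Synpr was at 7.88 in Pyr P0. The same limit applies to the age changes of Cadps2 in both populations and to the rise of Synpr in pyramidal cells.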
